A study of Mus musculus with 9 samples.

Results

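Transforming growth factor beta (TGF-beta) signalling was followed in 9 mouse oral tumors through 9 genes chosen by symbol, the ligands Tgfb1, Tgfb2 and Tgfb3, the receptors Tgfbr1 and Tgfbr2, the signal transducer Smad3, the inhibitor Smad7, the activin subunit gene Inhba and the response gene Tgfbi. All 9 were found among the 18193 genes that had a probe set (a group of short probes read as 1 value) with a single symbol, and they had 24 of the 45037 non-control probe sets. The 9 genes also lay above the filter on low signal, which kept 12167 genes for testing. Smad7 had a higher signal in each of the 6 tumors with the p53R172H missense allele than in each of the 3 tumors with p53 deleted, on both of its probe sets, and the other 8 genes overlapped between the genotypes on their brightest probe set. Of all genes tested, 7.27% did not overlap between the p53R172H and the p53-/- tumors. With limma and Benjamini-Hochberg adjustment over all genes tested, none of the 9 genes, Smad7 included, had an adjusted p under 0.05 in the 4 comparisons.

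RNA of each tumor was hybridised to 1 Affymetrix array, and each value is a linear signal in arbitrary units. The labelled genotypes were p53-/-, in which both p53 alleles are lost, p53R172H/-, with the missense allele over a null allele, and p53R172H/+, with a missense and a wild-type allele, with 3 tumors each. The series' title names Ras activation for the tumors as a whole, all mice were 1 year old, and the source names carry the prefix K before the genotype, which the labels do not explain. How Ras was activated, which cells carried the alleles and whether p53R172H/+ tumors kept the wild-type allele are not stated in the sources at hand, and the targeted gene is not reported here. Nothing in the labels places the tumors of a group in separate animals, and the spread that the p-values rest on is that of these tumors. Keratinocyte markers were high in every tumor, with Krt14, a basal epithelial keratin, at 19908 to 22692, and none of the 18 markers lay at the floor in any tumor. Array medians were 109 to 123, and Pearson's r across non-control probe sets, which are not independent replicates, was 0.967 to 0.989 within groups and 0.954 to 0.989 between them. The number of arrays limits the precision. In bulk tumor RNA, fewer cells of a type and less RNA per cell cannot be told apart.

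TGF-beta ligands are secreted in a latent form and, once released, bring the type II receptor Tgfbr2 together with the type I receptor Tgfbr1, which phosphorylates Smad2 and Smad3. These join Smad4 and regulate target genes, among them Smad7, which in turn blocks the receptor. In stratified epithelium the pathway is known to restrain keratinocyte growth, and in the connective tissue around tumors it is known to drive matrix production.

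The 3 ligand genes did not separate the genotypes. Tgfb1, the ligand gene with the broadest expression, had signals of 288, 216 and 250.2 in p53-/- tumors 1 to 3, 300.1, 241 and 273 in p53R172H/- tumors and 306, 342 and 235 in p53R172H/+ tumors. The 3 ranges overlapped, and the group means were 251 ± 36.5, 272 ± 29.5 and 295 ± 54.5 (SD, n = 3 each). Against p53-/- the log2 difference of Tgfb1 was 0.12 ± 0.17 (SE) in p53R172H/- (limma, adjusted p = 0.741) and 0.22 ± 0.17 in p53R172H/+ (limma, adjusted p = 0.626). A dimmer Tgfb1 probe set spanned 141 to 183 over the tumors, and r between both probe sets over the 9 tumors was -0.32 (rho -0.37, exact permutation p = 0.389, adjusted p = 0.545 over 14 probe set pairs).

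Tgfb2, a ligand gene with marked roles in development, had signals of 305, 214 and 315 in p53-/- tumors, 248, 227 and 188 in p53R172H/- tumors and 245, 327 and 242 in p53R172H/+ tumors. One p53-/- tumor lay among the p53R172H/- values, so these groups overlapped. The log2 difference of p53R172H/- from p53-/- was -0.32 ± 0.19 (SE; limma, adjusted p = 0.419), the lowest of the 9 genes in that comparison. The other 3 probe sets of Tgfb2 gave 0.18 ± 0.23, -0.12 ± 0.26 and -0.20 ± 0.17 there, so the direction was not shared by all of them. Tgfb3, the third ligand gene, which a stricter filter on low signal leaves out, had signals of 144, 134 and 168 in p53-/- tumors, 103, 149 and 167 in p53R172H/- tumors and 179.7, 148 and 166 in p53R172H/+ tumors. The lowest value was that of p53R172H/- tumor 1, and the means were 140 ± 32.9 in p53R172H/-, 148 ± 17.6 in p53-/- and 165 ± 16.03 in p53R172H/+ tumors (SD, n = 3 each).

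The promoters of Tgfb1 and Tgfb2 are shown because these ligand genes share a receptor but not a promoter type. Each stretch runs from 250 bases before to 50 bases after the annotated start (RefSeq, build GRCm38.p6), and capitals mark CAGAC (the short motif that Smads bind), GGGCGG (the GC box) and TATAAA (the TATA box), each on either strand. Tgfb1 is at chr7:25686752-25687051 on the + strand and Tgfb2 at chr1:186705940-186706239 on the - strand.
Tgfb1 promoter: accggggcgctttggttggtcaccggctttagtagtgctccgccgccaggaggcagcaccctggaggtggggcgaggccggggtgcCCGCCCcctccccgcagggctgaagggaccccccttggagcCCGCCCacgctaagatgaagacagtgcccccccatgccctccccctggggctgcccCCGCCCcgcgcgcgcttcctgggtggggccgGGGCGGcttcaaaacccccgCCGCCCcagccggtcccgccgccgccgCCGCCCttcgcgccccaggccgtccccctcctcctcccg
Tgfb2 promoter: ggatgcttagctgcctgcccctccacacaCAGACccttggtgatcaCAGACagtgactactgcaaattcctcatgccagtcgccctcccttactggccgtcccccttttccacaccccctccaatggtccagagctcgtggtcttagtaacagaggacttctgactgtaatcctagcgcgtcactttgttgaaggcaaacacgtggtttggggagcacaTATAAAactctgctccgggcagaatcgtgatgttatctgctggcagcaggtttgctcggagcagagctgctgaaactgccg
The Tgfb1 stretch had 77.0% G and C, 6 GGGCGG matches and no TATAAA, and the Tgfb2 stretch had 54.3% G and C, 2 CAGAC matches, no GGGCGG and 1 TATAAA starting 31 bases before the annotated start. Among 32851 RefSeq promoters of 300 bases, 49.6% held CAGAC, 35.7% held GGGCGG and 13.6% held TATAAA, and the median G and C share was 52.7%. A match is a description of the letters and does not show that a factor binds there. RefSeq promoters were used for 7 of the 9 genes, without Tgfb3 and Smad7.

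Inhba encodes the subunit of activin A, a related ligand that signals through Smad2 and Smad3. Its brighter probe set read 232, 178 and 187 in p53-/- tumors, 260.4, 272 and 184 in p53R172H/- tumors and 197, 232 and 230.3 in p53R172H/+ tumors, and the groups overlapped. The log2 difference of both p53R172H groups from p53-/- was 0.20 ± 0.15 (SE; limma, adjusted p = 0.502). The dimmer Inhba probe set read 189 in p53-/- tumor 2 and 59.0 to 87.8 in the other 8 tumors, its difference was -0.41 ± 0.33 (SE), and averaging both probe sets turned the Inhba difference to -0.10.

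**Figure D1:**
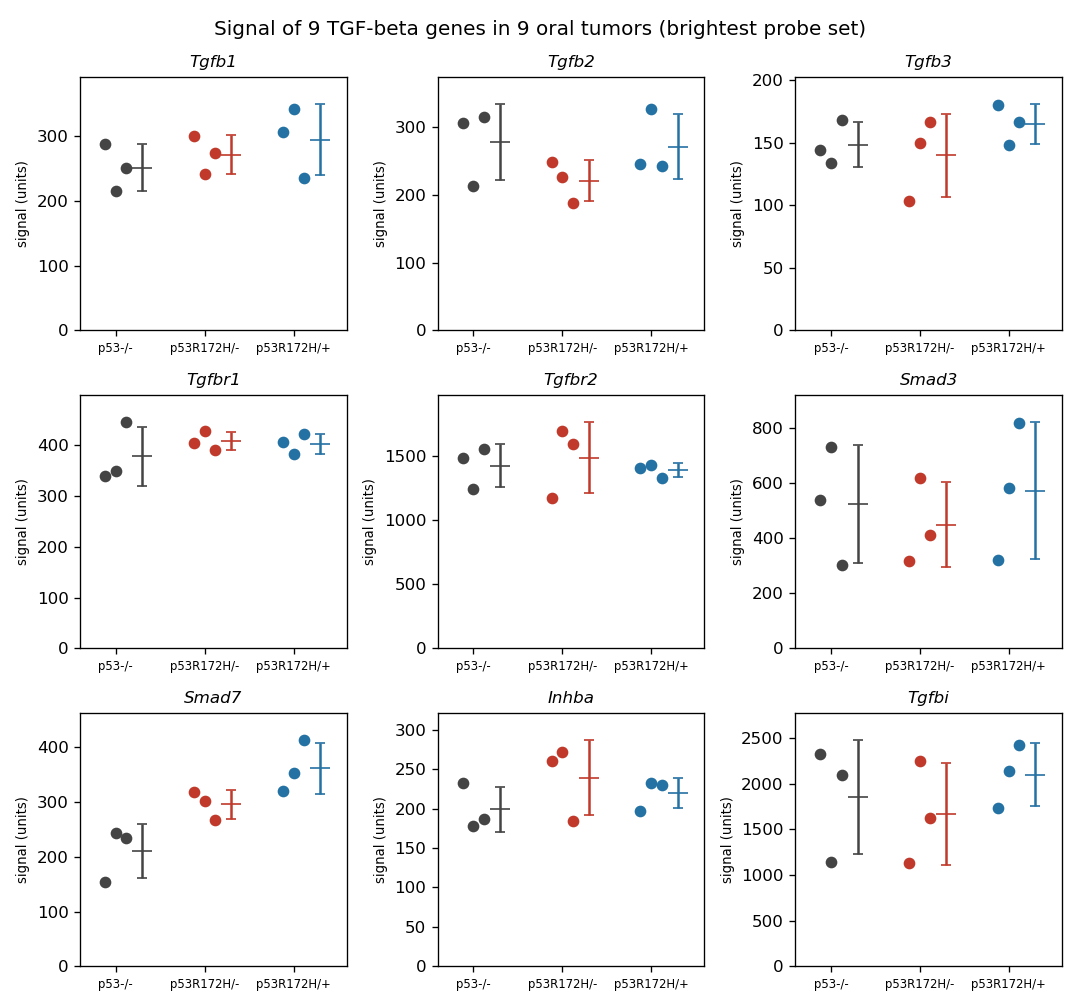
Signal (linear units, y axis from 0) of the brightest probe set of each of the 9 genes by genotype. Points are single tumors in the order 1 to 3, and the bar beside them is the mean with 1 SD (n = 3 tumors); in the Smad7 panel the p53-/- tumors (153 to 243) sit below all p53R172H tumors (267 to 413).

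The receptor genes were the steadiest of the 9. Tgfbr1, the type I receptor kinase, read 340.1, 348 and 445 in p53-/- tumors, 405, 427 and 391 in p53R172H/- tumors and 406, 382 and 421 in p53R172H/+ tumors. Its log2 SD over the 9 tumors was 0.13, at the 25.3 percentile of the genes tested, whose median was 0.18. The 2 dimmer Tgfbr1 probe sets lay near the floor, at means of 71.5 and 52.8.

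Tgfbr2, the receptor that binds the ligand first, read 1487, 1242 and 1554 in p53-/- tumors, 1177, 1693 and 1599 in p53R172H/- tumors and 1409, 1432 and 1328 in p53R172H/+ tumors. The groups overlapped, and both p53R172H groups differed from p53-/- by 0.0089 ± 0.12 on the log2 scale (SE; limma, adjusted p = 0.978). A second Tgfbr2 probe set gave 0.21 ± 0.17 (SE) and the third lay at the floor in all 9 tumors.

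Smad3, the transducer that carries the signal from the receptor to the nucleus, varied most among the 9 genes, with a log2 SD of 0.54 over the tumors (96.5 percentile of the genes tested). Its brightest probe set read 539.8, 732 and 304 in p53-/- tumors, 318, 617 and 409.7 in p53R172H/- tumors and 321, 579.9 and 816 in p53R172H/+ tumors. Each genotype held tumors at both ends of the range, and the log2 difference of both p53R172H groups from p53-/- was -0.039 ± 0.35 (SE; limma, adjusted p = 0.965). A dim Smad3 probe set, 1450471_at, read 91.0, 119 and 86.5 in p53-/- tumors, 82.4, 66.3 and 71.4 in p53R172H/- tumors and 78.9, 74.8 and 80.1 in p53R172H/+ tumors, so that every p53R172H tumor was lower. This probe set differed by -0.38 ± 0.12 (SE; limma over 45037 probe sets, adjusted p = 0.320). The third Smad3 probe set gave 0.071 ± 0.10 (SE), so the probe sets of Smad3 did not share a direction, and r of the brightest with the dim ones was 0.19 and -0.41 over the 9 tumors (rho -0.07 and -0.27, exact permutation p = 0.658 and 0.276, adjusted p = 0.709 and 0.429).

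Smad7, which binds the activated receptor and recruits ubiquitin ligases to it, separated the p53R172H tumors from the p53-/- tumors. Its brighter probe set, 1443771_x_at, read 153, 243 and 234 in p53-/- tumors, 319, 302 and 267 in p53R172H/- tumors and 321, 352 and 413 in p53R172H/+ tumors. The highest p53-/- tumor lay below the lowest p53R172H tumor, and the lowest p53R172H/+ tumor lay just above the highest p53R172H/- tumor. The group means were 210 ± 49.2, 296 ± 26.5 and 362 ± 46.8 (SD, n = 3 each).

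The other Smad7 probe set, 1423389_at, read 171, 178 and 180.4 in p53-/- tumors, 229.6, 232 and 227 in p53R172H/- tumors and 234, 231 and 202 in p53R172H/+ tumors. Here too every p53R172H tumor was above every p53-/- tumor, while the p53R172H groups overlapped each other. Its means were 176 ± 4.91, 229 ± 2.56 and 222 ± 17.3 (SD, n = 3 each). Over the 9 tumors r between both Smad7 probe sets was 0.71 (rho 0.65, exact permutation p = 0.0242, adjusted p = 0.0677). After centring on the group means r was -0.086, so the probe sets shared the step between genotypes but not the order of tumors within them. For example, p53R172H/+ tumor 3 was the highest on the brighter probe set (413) and the lowest p53R172H tumor on the other (202). The suffix _x_at of the brighter probe set marks probes that can also match other transcripts, and the other probe set does not carry that suffix.

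Setting p53R172H/- against p53-/- tumors compares the missense protein, with no wild-type allele, with loss of p53. Smad7 was 1.44-fold higher, a log2 difference of 0.52 ± 0.18 (SE; limma, adjusted p = 0.263). Of the 9 genes 1, Smad7, had an unadjusted p under 0.05, against 15.6% of all genes tested, and the same gene was the 1 whose groups did not overlap, against 22.9% of all genes. In p53R172H/+ against p53-/- tumors Smad7 was 1.75-fold higher, a log2 difference of 0.81 ± 0.18 (SE; limma, adjusted p = 0.359), with rank 51 of 12167 by p. Of the 9 genes 1 had an unadjusted p under 0.05 against 10.3% of all genes, and 1 did not overlap against 15.9% of all genes. Over the 4 comparisons limma called 0 of all 12167 genes (0%) at an adjusted p under 0.05, while 1897, 1259, 603 and 1938 had an unadjusted p under 0.05.

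Between the p53R172H groups, which differ in the second p53 allele, Smad7 was lower in p53R172H/- than in p53R172H/+ tumors by a log2 value of -0.28 ± 0.18 (SE; limma, adjusted p = 0.949) on the brighter probe set and differed by 0.047 ± 0.064 (SE) on the other. None of the 9 genes had an unadjusted p under 0.05 in this comparison, where 4.96% of all genes did, and 1, Smad7, did not overlap, where 11.9% of all genes did not. With both p53R172H groups against p53-/-, which shares its tumors with the first comparisons, Smad7 was 1.59-fold higher, a log2 difference of 0.66 ± 0.16 (SE; limma, adjusted p = 0.188). Here 1 of the 9 genes had an unadjusted p under 0.05 against 15.9% of all genes, and 1 did not overlap against 7.27% of all genes. On the other probe set that difference was 0.36 ± 0.055 (SE; limma over all probe sets, adjusted p = 0.191).

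Markers of RNA integrity, stroma and neutrophils moved with these groups in part. The mean log2 ratio of 3' to 5' control probe sets of Actb and Gapdh was 0.265 to 0.400 in p53-/- tumors, 0.141 to 0.315 in p53R172H/- tumors and 0.177 to 0.271 in p53R172H/+ tumors. With this ratio as a covariate Smad7 differed by 0.47 ± 0.22 (SE; limma, adjusted p = 0.706) in p53R172H/-, 0.75 ± 0.24 (adjusted p = 0.989) in p53R172H/+ and 0.61 ± 0.21 (adjusted p = 0.860) in both against p53-/-. The mean log2 signal of 17 fibroblast and matrix markers was 10.4 to 11.2 in p53-/- tumors, 10.1 to 10.7 in p53R172H/- tumors and 10.8 to 11.0 in p53R172H/+ tumors, with none of the markers at the floor. In p53R172H/- against p53-/- the list median was -0.60, with 14 lower and 3 higher means. At an unadjusted p under 0.05 (limma) 11 of the 17 were lower, where 9.16% of all genes were, and 0 passed after adjustment. Dcn went the other way, with 2951, 919 and 3934 in p53-/- and 1207, 6349 and 5253 in p53R172H/- tumors. Whether the list mean follows fibroblast content was not tested. With the mean of these 17 markers as a covariate Smad7 differed by 0.36 ± 0.21 (SE; limma, adjusted p = 0.339) in p53R172H/- and 0.85 ± 0.18 (adjusted p = 0.400) in p53R172H/+ against p53-/-. Without p53-/- tumor 1, the lowest Smad7 value on the brighter probe set, the difference in p53R172H/- was 0.31 ± 0.14 (SE; limma, adjusted p = 0.312), which is more than 1.5 times smaller. The mean log2 signal of 9 neutrophil markers was 8.86 to 9.10 in p53-/- tumors, 9.04 to 9.79 in p53R172H/- tumors and 9.17 to 9.96 in p53R172H/+ tumors. The p53-/- and p53R172H/+ tumors did not overlap. With both p53R172H groups against p53-/-, 3 of the 9 had an unadjusted p under 0.05, all 3 higher. Of all genes 6.84% were higher and 9.09% lower at that p. After adjustment 0 of the 9 markers passed 0.05 with limma. The list median was 0.24. Of the 9 markers 7 had a higher and 2 a lower mean. Among the lower was Cxcr2, at 137 to 210 in p53-/- and 124 to 155 in p53R172H tumors. Ltf, one of the 9, ran from 47.4 to 2860 over the tumors. Whether the list mean follows neutrophil content, and the part of that content in the Smad7 difference, were not tested.

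**Figure D2:**
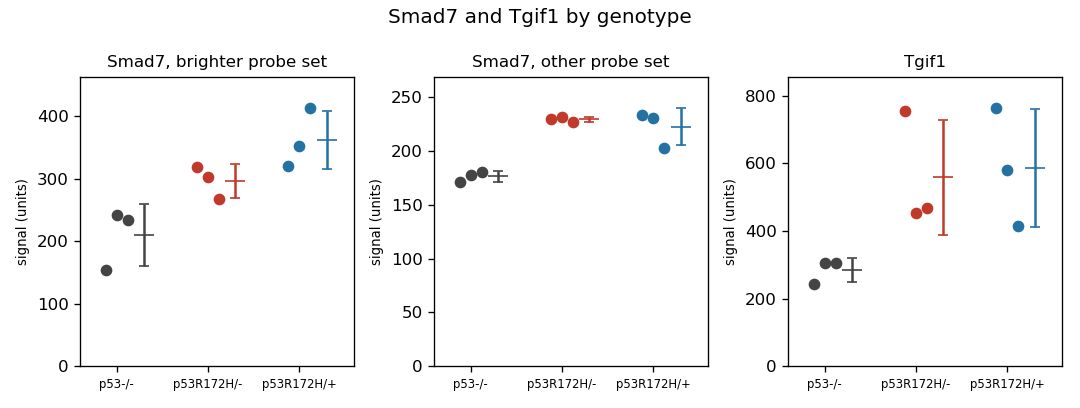
Signal (linear units, y axis from 0) of Smad7 on its brighter and other probe set and of Tgif1, a transcriptional repressor of the pathway, by genotype. Points are tumors 1 to 3 and bars show the mean with 1 SD (n = 3); on all 3 panels each p53-/- tumor is below each p53R172H tumor, and Tgif1 spans 244 to 305 in p53-/- and 415 to 763 in the p53R172H tumors.

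Tgfbi encodes a secreted matrix protein induced by TGF-beta. Its brightest probe set read 2319, 1148 and 2092 in p53-/- tumors, 1137, 2247 and 1629 in p53R172H/- tumors and 1738, 2136 and 2421 in p53R172H/+ tumors. Low and high tumors were found in both the p53-/- and the p53R172H/- group, and the means were 1853 ± 621, 1671 ± 556 and 2098 ± 343 (SD, n = 3 each). Between the p53R172H groups the log2 difference was -0.37 ± 0.30 (SE; limma, adjusted p = 0.949), the lowest of the 9 genes there. The 4 Tgfbi probe sets followed each other closely over the 9 tumors, with r of the brightest against the others at 0.99, 0.96 and 0.99 (rho 0.93, 0.90 and 0.93; exact permutation p = 3.31e-05, 7.44e-05 and 3.03e-05, adjusted p = 0.000231, 0.000347 and 0.000231), and r without the 2 farthest tumors was 0.98, 0.94 and 0.97. Within genotypes, after centring on the group means, r was 0.999, 0.971 and 0.998.

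**Figure D3:**
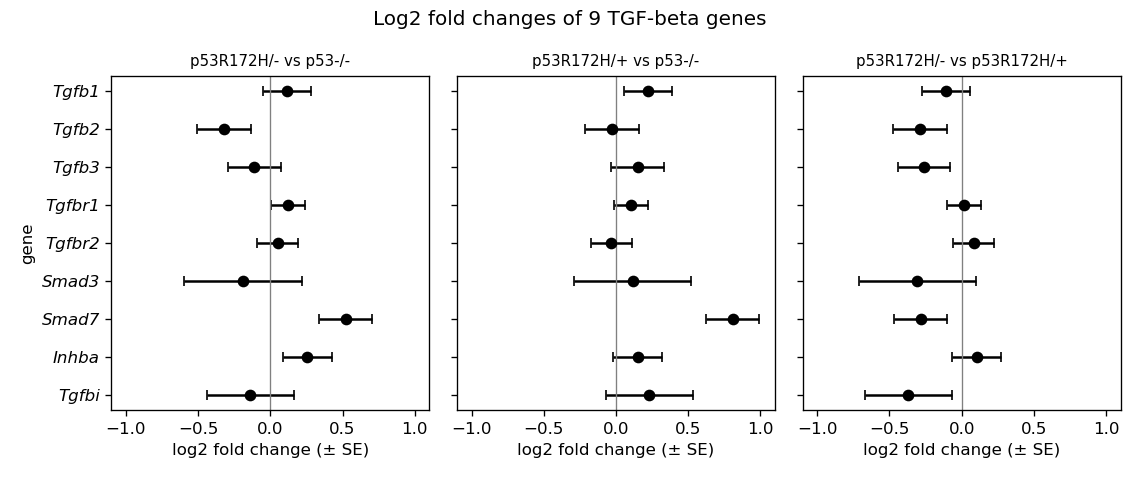
Log2 fold change (x axis, with 1 SE from limma) of the 9 genes (y axis) in 3 comparisons, first group minus second, n = 3 tumors a group. In the first 2 panels Smad7 stands highest at 0.52 and 0.81, and the other genes lie between -0.32 and 0.25.

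The median log2 difference of the 9 genes was 0.051 in p53R172H/- against p53-/- (5 higher and 4 lower; all genes -0.033), 0.15 in p53R172H/+ against p53-/- (7 higher and 2 lower; all genes -0.028) and -0.26 between the p53R172H groups (3 higher and 6 lower in p53R172H/-; all genes -0.0073). Between the p53R172H groups Tgfbi, Smad3, Tgfb2, Smad7 and Tgfb3 stood between the 2.88 and 6.92 percentile of the log2 differences of all genes tested. With the fibroblast marker mean as a covariate, the median of the 9 genes between these groups moved from -0.26 to 0.038. In p53R172H/+ against p53-/- the 7 higher genes stood between the 75.4 and 99.6 percentile. Over all 23 probe sets not at the floor throughout, 12, 17 and 7 were higher in the first-named group of these comparisons, 2, 2 and 0 were higher without overlap (Smad7 both times) and 1, 1 and 1 lower without overlap (Smad3, Smad3 and Smad7). Of all non-control probe sets 6.69%, 4.88% and 4.03% were higher without overlap in these comparisons, and 10.3%, 6.69% and 4.38% were lower. With both p53R172H groups against p53-/-, 2 of the 23 were higher and 1 lower without overlap, where 2.33% and 3.19% of all non-control probe sets were.

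**Figure D4:**
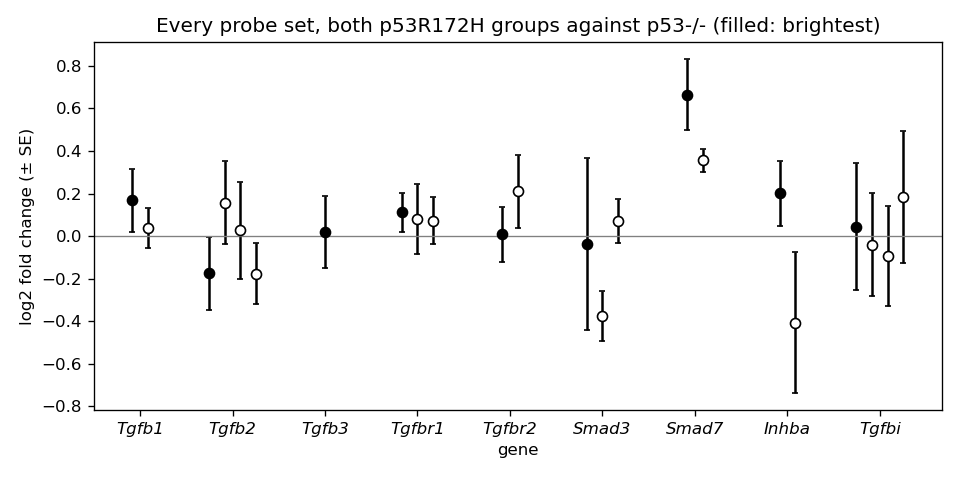
Log2 fold change (y axis, with 1 SE from limma) of 23 probe sets, both p53R172H groups (6 tumors) against p53-/- (3 tumors), grouped by gene on the x axis. Filled points are the brightest probe set of a gene; both Smad7 probe sets lie above 0 (0.66 and 0.36), and the Smad3 and Inhba probe sets fall on both sides of 0.

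Other inhibitors of the pathway were read from a list of 18 genes, of which 15 were measured. With both p53R172H groups against p53-/-, 3 of the 15 had an unadjusted p under 0.05, all 3 higher (6.84% of all genes were higher and 9.09% lower at that p), and 0 passed an adjusted p of 0.05 with limma. The list median was 0.077 (all genes -0.032). Tgif1, a homeobox repressor that competes at Smad complexes, read 244, 305 and 305 in p53-/- tumors, 755, 453 and 469 in p53R172H/- tumors and 763, 579.6 and 415 in p53R172H/+ tumors. Every p53R172H tumor lay above every p53-/- tumor, where 7.27% of all genes did not overlap in either direction. The log2 difference of Tgif1 was 0.94 ± 0.25 (SE; limma, adjusted p = 0.214) in p53R172H/-, 1.00 ± 0.25 (adjusted p = 0.359) in p53R172H/+ and 0.97 ± 0.22 (adjusted p = 0.188) in both, from a single probe set, and with the 3' to 5' ratio as a covariate these were 0.62 ± 0.23, 0.62 ± 0.24 and 0.62 ± 0.22. Smurf2, a ubiquitin ligase that Smad7 brings to the receptor, differed by 0.29 ± 0.12 (SE; limma, adjusted p = 0.297) in both groups, and its other 2 probe sets gave 0.18 and 0.15. The remaining one of the 3, Usp15, is a deubiquitinase that acts on the receptor and Smads and is known to promote signalling against Smad7 and Smurf2, a role opposite to the name of the list. It differed by 0.20 ± 0.077 (SE; limma, adjusted p = 0.274) on its brightest probe set. Its other probe sets gave -0.31 and -0.20 or lay at the floor, and the mean of its probe sets turned the difference to -0.051.

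The activin and bone morphogenetic protein ligands were read from 12 genes, 8 of them measured. With both p53R172H groups against p53-/-, 2 of the 8 had an unadjusted p under 0.05, both lower (9.09% of all genes were lower at that p), and 0 passed with limma after adjustment. The list median was -0.17 (all genes -0.032). Nodal, a ligand of early embryonic patterning, read 195, 197 and 204 in p53-/- tumors, 130.4, 115 and 132 in p53R172H/- tumors and 155, 100.1 and 166 in p53R172H/+ tumors. All p53R172H tumors were below all p53-/- tumors on that probe set, and 7.27% of all genes did not overlap in this comparison. The log2 difference was -0.60 ± 0.15 (SE; limma, adjusted p = 0.195), and the second Nodal probe set gave -0.16 ± 0.16 (SE). With the mean of its probe sets the Nodal difference was -0.38. In p53R172H/+ alone it went from -0.54 to -0.31 both with that mean and without p53R172H/+ tumor 2. Bmp4, a ligand that signals through Smad1 and Smad5, averaged 493 ± 95.5 in p53-/-, 343 ± 80.4 in p53R172H/- and 275 ± 90.8 in p53R172H/+ tumors (SD, n = 3 each), and its difference in p53R172H/+ against p53-/- was -0.87 ± 0.25 (SE; limma, adjusted p = 0.359), or -0.56 with the 3' to 5' ratio as a covariate.

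Of 10 measured genes for latency and activation of the ligands, 0 had an unadjusted p under 0.05 with both p53R172H groups against p53-/-. Of all genes 15.9% did, and 0 of the 10 passed after adjustment with limma. Ltbp2, a matrix protein of the latent ligand family, averaged 289.9 ± 51.6 in p53-/-, 182 ± 41.2 in p53R172H/- and 279.6 ± 84.5 in p53R172H/+ tumors (SD, n = 3 each), and p53R172H/- lay below p53-/- by a log2 value of -0.68 ± 0.23 (SE; limma, adjusted p = 0.263). Of 9 other measured receptors, 1 had an unadjusted p under 0.05 with both p53R172H groups against p53-/-, where 15.9% of all genes did. This was Acvr1, a type I receptor for bone morphogenetic proteins, with means of 374 ± 12.5, 496 ± 49.5 and 452 ± 67.4 (SD, n = 3 each) and a log2 difference of 0.33 ± 0.11 (SE; limma, adjusted p = 0.241). A second Acvr1 probe set gave 0.34 and the third -0.12, and the mean of the probe sets gave 0.18. Among 8 measured Smads and cofactors, 0 had an unadjusted p under 0.05 in any of the 4 comparisons, and Smad4, the shared partner of the receptor-activated Smads, differed by 0.18 ± 0.081 (SE; limma, adjusted p = 0.328) in both groups against p53-/-, with 0.092 and 0.46 on its other 2 probe sets.

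Of 27 measured response genes, 9 had an unadjusted p under 0.05 with both p53R172H groups against p53-/-, 5 higher and 4 lower (6.84% of all genes were higher and 9.09% lower at that p), and 0 passed after adjustment with limma. The list median was -0.012 (all genes -0.032). The higher ones were Junb, Id1 (0.64), Id3 (0.38), Snai2 (0.36) and Bhlhe40 (0.30), and the lower ones Ccn2 (-0.73), Col1a1 (-0.50), Col1a2 (-0.42) and Itga5 (-0.32). Those without a sentence of their own are named here because their p was seen to be small. In the single comparisons 9 of the 27 had an unadjusted p under 0.05 in p53R172H/- against p53-/- (3 higher and 6 lower), where 6.44% of all genes were higher and 9.16% lower. In p53R172H/+ against p53-/- 6 of the 27 did (5 higher and 1 lower, Ccn2), where 4.75% of all genes were higher and 5.6% lower. Between the p53R172H groups 6 of the 27 did, all 6 lower in p53R172H/-, where 2% of all genes were higher and 2.96% lower. Junb, an AP-1 subunit induced early by TGF-beta and by growth factors, averaged 1416 ± 131 in p53-/-, 1883 ± 312 in p53R172H/- and 1999 ± 146 in p53R172H/+ tumors (SD, n = 3 each), a log2 difference of 0.45 ± 0.11 (SE; limma, adjusted p = 0.194) for both groups. The 6 that were lower in p53R172H/- than in p53R172H/+ tumors were Col1a1 (-0.76), Col1a2 (-0.67), Col4a1 (-0.67), Postn (-0.65), Col3a1 (-0.47) and Tagln (-0.29). Other probe sets gave -0.31 for Col1a1, -0.94 and -0.32 for Col1a2 and -0.53 for Col4a1 there. In p53R172H/+ against p53-/- Col1a1 differed by -0.12 ± 0.24 (SE) on its brightest probe set and by -0.54 ± 0.21 (SE) on the second, both from the fit over all probe sets. Col1a2, a chain of collagen I, averaged 5978 ± 1043 in p53-/-, 3522 ± 342 in p53R172H/- and 5670.2 ± 1271 in p53R172H/+ tumors (SD, n = 3 each), and p53R172H/- differed from p53-/- by -0.75 ± 0.18 and from p53R172H/+ by -0.67 ± 0.18 (SE; limma, adjusted p = 0.214 and 0.916). Col4a1, a chain of basement membrane collagen, averaged 1313 ± 293, 1164 ± 162 and 1855 ± 334 (SD, n = 3 each), and p53R172H/- differed from p53R172H/+ by -0.67 ± 0.18 (SE; limma, adjusted p = 0.916). Col1a1, Col1a2 and Col3a1 are also on the fibroblast list, whose level was 10.1 to 10.7 in p53R172H/- and 10.8 to 11.0 in p53R172H/+ tumors. With the fibroblast marker mean as a covariate, the difference between the p53R172H groups was -0.31 ± 0.18 for Col1a2, -0.49 ± 0.28 for Col1a1 and -0.63 ± 0.26 for Col4a1 (SE). That of Col1a2 in p53R172H/- against p53-/- was -0.48 ± 0.16 (SE). The covariate contains Col1a1 and Col1a2 themselves, so part of their shift was fixed in advance and tells nothing of fibroblast content. Col4a1 is not on that list.

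The genes were then set against each other over the 9 tumors. Of 36 pairs among the 9 genes, 0 had an exact permutation p under 0.05, and the highest Pearson's r was 0.65 between Tgfbr2 and Tgfbi. For that pair rho was 0.38, and r had an exact permutation p of 0.0593 (adjusted p = 0.869). Its r was 0.39 without the 2 tumors farthest from the median of Tgfbr2 and 0.81 within genotypes. Of 36 pairs of a gene with a marker list (fibroblast, keratinocyte, macrophage and skeletal muscle), 7 had an exact permutation p under 0.05 and 0 after Benjamini-Hochberg adjustment. Tgfb3 had r = 0.85 with 14 macrophage markers (rho 0.77, exact permutation p = 0.00197, adjusted p = 0.0709), 0.54 without the 2 farthest tumors and 0.94 within genotypes. Tgfb3 and Tgfbi had r = 0.78 and 0.72 with the fibroblast markers (rho 0.63 and 0.45, exact permutation p = 0.0106 and 0.0288, adjusted p = 0.191 and 0.207). Without the 2 tumors with the lowest fibroblast marker level these fell to 0.22 and 0.02, so both relations rest on those tumors. Smad3 had r = 0.71 with 18 keratinocyte markers (rho 0.73, exact permutation p = 0.0403, adjusted p = 0.209), 0.63 without the 2 farthest tumors and 0.90 within genotypes. The markers of that list varied unequally. Krt4 ran from 472 to 13502 and Krt13 from 9692 to 19417 over the tumors, while Krt14 ran from 19908 to 22692. Which markers carried this r was not tested, so it is not a measure of keratinocyte content. The mean log2 signal of 16 skeletal muscle markers was 8.01 to 8.73 in p53-/- and 6.67 to 8.82 in p53R172H/+ tumors. In p53R172H/- tumors 1 to 3 it was 6.88, 11.3 and 10.2, so that group held both low and high muscle signal. Tgfbr2 had r = 0.74 with macrophage markers and 0.73 with skeletal muscle markers (rho 0.53 and 0.67, exact permutation p = 0.0243 and 0.0249, adjusted p = 0.207 for each), which were 0.13 and 0.36 without the 2 farthest tumors. Tgfbi had r = 0.69 with macrophage markers (rho 0.37, exact permutation p = 0.0406, adjusted p = 0.209) and -0.47 without those tumors. For Smad7 no list reached an exact permutation p under 0.05, and the smallest was 0.0843 with keratinocyte markers (r = 0.59, rho 0.60, adjusted p = 0.368).

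**Figure D5:**
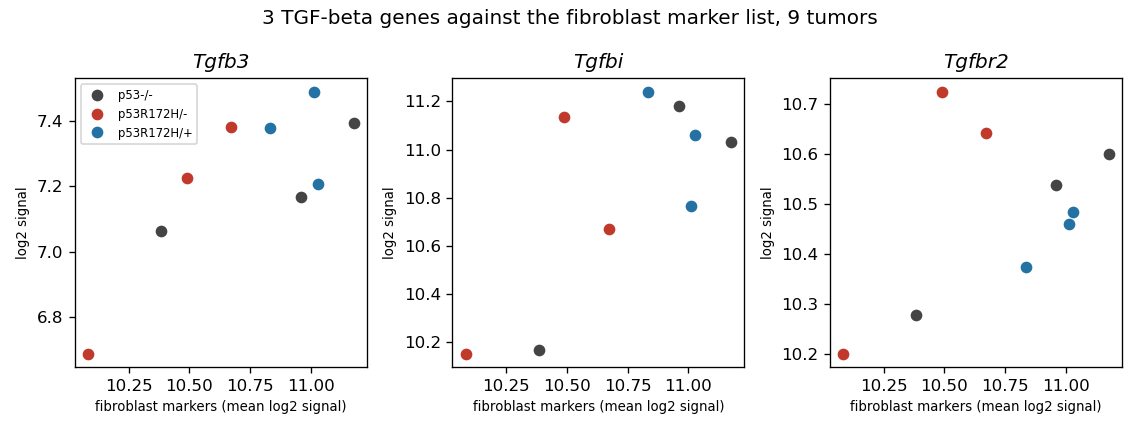
Log2 signal of Tgfb3, Tgfbi and Tgfbr2 (y axis) against the mean log2 signal of 17 fibroblast markers (x axis), 1 point per tumor coloured by genotype. The tumors at 10.1 (p53R172H/- tumor 1) and 10.4 (p53-/- tumor 2) on the x axis have the 2 lowest values of each gene.

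The promoters of Tgfbr2 and Tgfbi are shown because this pair had the highest r among the 9 genes, a choice made after the values were seen. They are at chr9:116175314-116175613 on the - strand and chr13:56609336-56609635 on the + strand (RefSeq, GRCm38.p6), with the capitals as for the ligand promoters, so that GTCTG is CAGAC and CCGCCC is GGGCGG on the other strand.
Tgfbr2 promoter: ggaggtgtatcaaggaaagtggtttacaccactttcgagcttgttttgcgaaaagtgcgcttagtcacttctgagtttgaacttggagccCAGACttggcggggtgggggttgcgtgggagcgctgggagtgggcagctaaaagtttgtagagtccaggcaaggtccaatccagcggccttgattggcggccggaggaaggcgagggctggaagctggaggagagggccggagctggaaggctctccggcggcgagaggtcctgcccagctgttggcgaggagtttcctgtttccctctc
Tgfbi promoter: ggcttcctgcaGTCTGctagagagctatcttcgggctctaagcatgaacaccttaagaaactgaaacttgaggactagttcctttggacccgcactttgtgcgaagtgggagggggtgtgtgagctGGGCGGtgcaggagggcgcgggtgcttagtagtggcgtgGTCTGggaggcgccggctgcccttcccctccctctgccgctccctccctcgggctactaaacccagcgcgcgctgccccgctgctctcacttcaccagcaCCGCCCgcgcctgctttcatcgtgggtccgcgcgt
The Tgfbr2 stretch held 1 CAGAC match and 59.0% G and C, the Tgfbi stretch held 2 CAGAC and 2 GGGCGG matches and 63.3% G and C, and neither held TATAAA or the AP-1 motif TGANTCA, which 7.8% of the promoters of this length held.

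For each of the 9 genes, the 2 genes most like it among the other 12166 were taken by Pearson's r of log2 signal over the 9 tumors, which is a description with no test. They were Yipf1 and Mapk6 for Tgfb1 (r = 0.96 and 0.94), Tnn and Aph1a for Tgfb2 (0.94 and 0.88), Svep1 and Tex2 for Tgfb3 (0.96 and 0.94), Armc1 and Vps54 for Tgfbr1 (0.94 and 0.91) and Ntn4 and Klf2 for Tgfbr2 (0.97 and 0.97). For Smad3 they were Gpd1 and Krt13, a keratin of the oral lining (r = 0.97 and 0.96), for Inhba Phf6 and Cideb (0.92 and 0.92), and for Tgfbi Rasgef1c and Fndc1 (0.96 and 0.94). Smad7 was most like Pcnx4 and 5730455P16Rik (r = 0.93 and 0.93), and within genotypes these were 0.73 and 0.84.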

How the data were processed

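Biotin-labelled cRNA of each tumor was read on an Affymetrix array, per the labels. The deposited values are linear signal intensities, 1 per probe set and array, which the authors made with MAS5 per the submitters' processing notes; its scaling is not given in the sources. Signals under the 20th percentile (52.6) were set to it before log2, so fold changes of dim probe sets are understated. Each gene was read from its brightest probe set, and genes with a mean above the median probe set (113) were tested. All 9 arrays entered 1 model with 3 group means in limma 3.58.1 (R 4.3.3; eBayes with trend), with two-sided p-values adjusted over 12167 genes, or over 45037 probe sets where stated. Correlations used log2 signals and exact two-sided permutation of 9 tumors. The genes named beyond the 9 were, of each pathway list, up to 4 with the smallest p in any comparison, and for each of the 9 the 2 most similar genes. The 9 genes, lists and tests were chosen with earlier results of these data known. The fit and the correlation test were tested on simulated data. Alternatives covered normalization, floor, filter, probe set choice, variance model, covariates, a block for the tumor number and leaving out arrays. Of the non-control probe sets 932 had several symbols and 9160 none, and these entered only the fit over probe sets. Some listed genes were not analysed here.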

Additional observations from a re-analysis of the deposited data

How the results depend on the processing

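The 4 counts of the 9 genes past an adjusted p of 0.05 (limma) stayed at 0 under the 13 alternatives (12 for Tgfb3, which the stricter filter left out) and with each of the 9 arrays left out. Of all genes, the count moved from 0 to 23 with the skeletal muscle marker level as a covariate and to 2 with the fibroblast marker level (p53R172H/- against p53-/-), and from 0 to 6 with the fibroblast marker level (both p53R172H groups against p53-/-). With arrays left out that last count ranged from 0 to 1, the 1 without p53R172H/+ tumor 3. The cause was not tested. Smad7 kept its sign in the 4 comparisons under these alternatives and with each array left out, and for both p53R172H groups against p53-/- it was 0.51 to 0.70 under alternatives and 0.45 to 0.78 with arrays left out. Of the 36 differences of the 9 genes, 20 changed sign under some alternative and 17 with some array left out.

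With the mean of probe sets, Inhba was -0.0992 in p53R172H/-, -0.10 in p53R172H/+ and -0.10 in both against p53-/-, Tgfb2 was 0.0328, Tgfbr2 0.0746 and Smad3 -0.0440 in p53R172H/+ against p53-/-, Tgfb1 was 0.0195 and Tgfbr2 -0.00253 between the p53R172H groups, and Usp15 was -0.0438 in p53R172H/- and -0.0512 in both against p53-/-. With the fibroblast covariate Tgfb3 was 0.15 and Tgfbi 0.32 in p53R172H/- against p53-/-, and between the p53R172H groups Tgfb1 was 0.0178, Tgfb3 0.0768 and Tgfbi 0.21. With the muscle covariate Tgfbr2 was -0.0613 in p53R172H/-, 0.0228 in p53R172H/+ and -0.0193 in both against p53-/-, and -0.0841 between the p53R172H groups, where Tgfb1 was 0.0569 and Tgfbr1 -0.0379. Tgfb3 was -0.0196 and Tgfbi -0.0134 in both against p53-/-. With the 3' to 5' ratio as a covariate Smad3 was 0.41 in p53R172H/- and 0.62 in both, Tgfbi 0.000827 in p53R172H/-, and Tgfbr1 -0.000812 and Tgfbr2 0.0745 in p53R172H/+. The cause of these was not tested.

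With each array left out, the differences that changed sign had these ranges. In p53R172H/- against p53-/- they were -0.54 to 0.0928 for Smad3, -0.25 to 0.0948 for Tgfb3, -0.45 to 0.11 for Tgfbi and -0.0507 to 0.21 for Tgfbr2. In p53R172H/+ against p53-/- they were -0.24 to 0.48 for Smad3, -0.21 to 0.0717 for Tgfb2, -0.0834 to 0.42 for Tgfbi and -0.13 to 0.0317 for Tgfbr2. In both against p53-/- they were -0.39 to 0.25 for Smad3, -0.0522 to 0.12 for Tgfb3, -0.27 to 0.24 for Tgfbi and -0.0882 to 0.0894 for Tgfbr2. Between the p53R172H groups they were -0.000401 to 0.28 for Inhba, -0.67 to 0.000206 for Smad3, -0.26 to 0.0112 for Tgfb1, -0.0214 to 0.0490 for Tgfbr1 and -0.0179 to 0.24 for Tgfbr2. The correlation of Tgfbi with macrophage markers was -0.47 without the 2 farthest tumors.

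The tumor numbers did not pair the samples, since the correlations of same-numbered deviations were -0.50 to 0.24 and 2 of 9 arrays matched their own number best. With the number as a block, Smad7 differed by 0.66 (limma, adjusted p = 0.195) in both p53R172H groups against p53-/-, and 0 genes were called in each comparison.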
